A study of Mus musculus with 8 samples.

Results

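The MAP kinase cascade genes are the kinases named Map4k, Map3k, Map2k or Mapk plus a number, and they were examined in an Argonaute crosslinking dataset from mouse forebrain. Members were taken by symbol: every gene whose symbol is one of these 4 stems followed by digits and that the deposited table names in its 3' UTR, CDS, 5' UTR or intron column. The rule used the gene names and no read value. It found 29 genes among the 9962 genes named in those columns, and they are named by 239 of the 70142 clusters. GENCODE M21 annotates 43 genes with such symbols, so 14 were not named in those columns: Map4k1, Map3k6, Map3k8, Map3k11, Map3k13, Map3k14, Map3k15, Map3k19, Map3k20, Map3k21, Map2k2, Map2k3, Mapk13 and Mapk15. The table did not hold these 14 under older symbols either.

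The data came from FLAG-Ago HITS-CLIP, in which UV light links RNA to a tagged Argonaute protein, the protein is pulled down with an antibody to the tag, and the bound RNA fragments are sequenced. There were 5 libraries from Rosa-Stopfl/fl-Flag-Ago2 mice with Camk2a-cre and 3 control libraries from Rosa-Stopfl/fl-Flag-Ago2 mice without it, made in 3 experiments. All 8 libraries share the ROSA26 allele that encodes FLAG-HA2-tagged Ago2 behind a stop cassette, and only the first group carries Cre, so the tagged protein is made where the Camk2a promoter was active. The animals were 8 to 14 weeks old, and no treatment is named. The stated purpose was to find miRNA seed targeting in the neurons that express Camk2a.

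The table gives 1 pooled read count for each cluster, a stretch of genome covered by overlapping reads. No column belongs to a library or to a genotype, so no value below has a replicate spread, none is a difference between genotypes, and none could be set against a control level. No test was run. Ranges beside shares are 95% Wilson intervals on counts of genes or clusters, and without replicates they cover counting error only. Read counts may hold PCR copies, since the reads carry no molecular identifiers. The table holds 1834586 reads, with a lowest count of 10 and a median of 18 reads per cluster, so RNA below 10 reads in a cluster cannot be seen. All 6 excitatory forebrain neuron markers looked up had exonic clusters (34 to 618 reads). So did 6 of 6 astrocyte markers (58 to 1105 reads), 5 of 6 oligodendrocyte markers (0 for Mog) and 3 of 6 markers each of microglia (0 for P2ry12, Aif1 and Tmem119), interneurons (0 for Pvalb, Sst and Vip) and endothelium (0 for Pecam1, Kdr and Cdh5). The labelled cell type, Camk2a neuron, was thus joined by markers of other cells. Their part in the cascade genes' reads was not tested.

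MAP kinase cascades pass a signal down a line of kinases. A MAP4K can activate a MAP3K, which phosphorylates a MAP2K, which phosphorylates the MAP kinase that acts on transcription factors, cytoskeletal proteins and other kinases. In forebrain neurons the ERK branch is known for its role in synaptic plasticity and memory, and the JNK and p38 branches are known for responses to stress and for axon degeneration and regrowth. Argonaute carries a miRNA whose seed, bases 2 to 8 from its 5' end, pairs with target RNA, most often in the 3' UTR.

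Cascade genes had clusters in exons more often than protein-coding genes at large. At least 1 exonic cluster (3' UTR, CDS or 5' UTR) was found for 25 of 43 cascade genes, 58.1% (43.3 to 71.6%), against 35.8% of all 21911 protein-coding genes. In these bulk counts, fewer cells of a type, less RNA per cell and less binding per transcript cannot be told apart. A 3' UTR cluster was found for 20 of 43, 46.5% (32.5 to 61.1%), against 21.5%. In any of the 4 columns, 29 of 43 were named, and 43.2% of all protein-coding genes were. The cascade genes are long: the members had a median of 6086 exonic bases, the annotated cascade genes that are not members 4554 and all protein-coding genes 3501. All genes were split into 4 equal bins by exonic length. Among the longest genes (5808 bases and more), 15 of 19 cascade genes had an exonic cluster where 64.0% of all genes did. In the bin from 3501 bases it was 7 of 15 where 43.9% did, and in the bin from 1971 bases 3 of 9 where 25.9% did. The bin of the shortest genes held 0 cascade genes. Set against genes of like length, the cascade genes were thus closer to the rest than in the whole comparison.

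The genes were also counted by tier. Exonic clusters were found for 3 of 5 Map4k genes, 8 of 18 Map3k genes, 3 of 7 Map2k genes and 11 of 13 Mapk genes, against 35.8% of all protein-coding genes. The tiers are small, their gene lengths were not matched, and a difference between them was not tested. The Map4k genes held 691 exonic reads in 22 clusters, the Map3k genes 622 in 27, the Map2k genes 918 in 12 and the Mapk genes 1534 in 48. The Map3k tier thus had the most annotated genes and the fewest exonic reads, and the Map2k tier had the most reads per exonic cluster. Of the Map2k reads, 716 lay in 6 3' UTR clusters, nearly as many as the 742 in the 28 3' UTR clusters of the Mapk genes. A single cluster of Map2k4 gave 359 of the 716. It also names CDS and an intron, and smaller clusters of both tiers also name CDS, so these reads are not of 3' UTR alone.

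**Figure D1:**
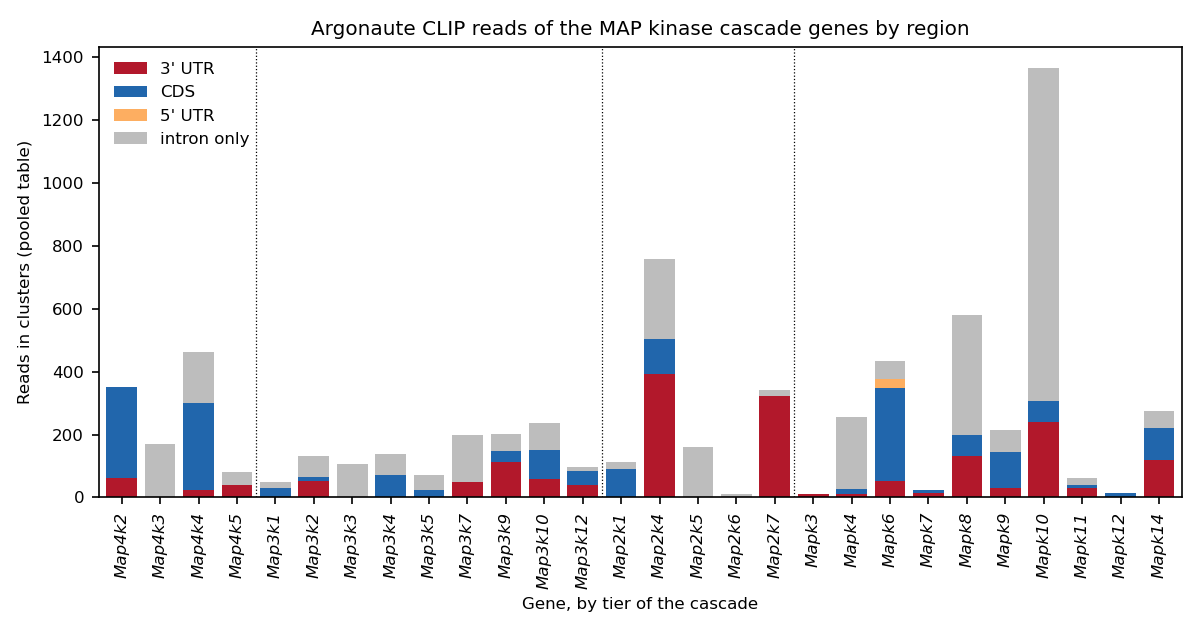
Reads in clusters (vertical axis, pooled over the whole study) of 28 cascade genes, stacked by region and ordered by tier, with dotted lines between tiers. Mapk10 has the tallest bar, most of it from introns (1056 of 1364 reads), and Map2k4 and Map2k7 have the tallest 3' UTR parts (393 and 323 reads). In these parts, 359 reads of Map2k4 and 20 of Map2k7 lie in clusters that also name CDS.

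Exonic reads were also divided by kilobases of exon, which allows only in part for gene length. A listed cluster holds at least 10 reads, so the lowest value open to a gene with a cluster falls with its length. Of the members' 109 exonic clusters 52 also name an intron, as 44.9% do over all genes, while the length counts exons alone. On this scale the 25 genes with an exonic cluster had a median of 17.3 reads per kb, against 9.80 for the 7837 protein-coding genes with one. Of the 25, 12 lay above the upper quartile of those genes (19.6 reads per kb) and 5 below the lower quartile (4.86). It was 11 above with Map3k9 counted inside its annotated exons only, where it had 10.7 reads per kb in place of 24.9. The level rested on few clusters in each gene. In the 22 members with at least 2 exonic clusters, the deepest held a median of 47.6% of the exonic reads, and the same share over 4903 protein-coding genes was 50.7%.

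**Figure D2:**
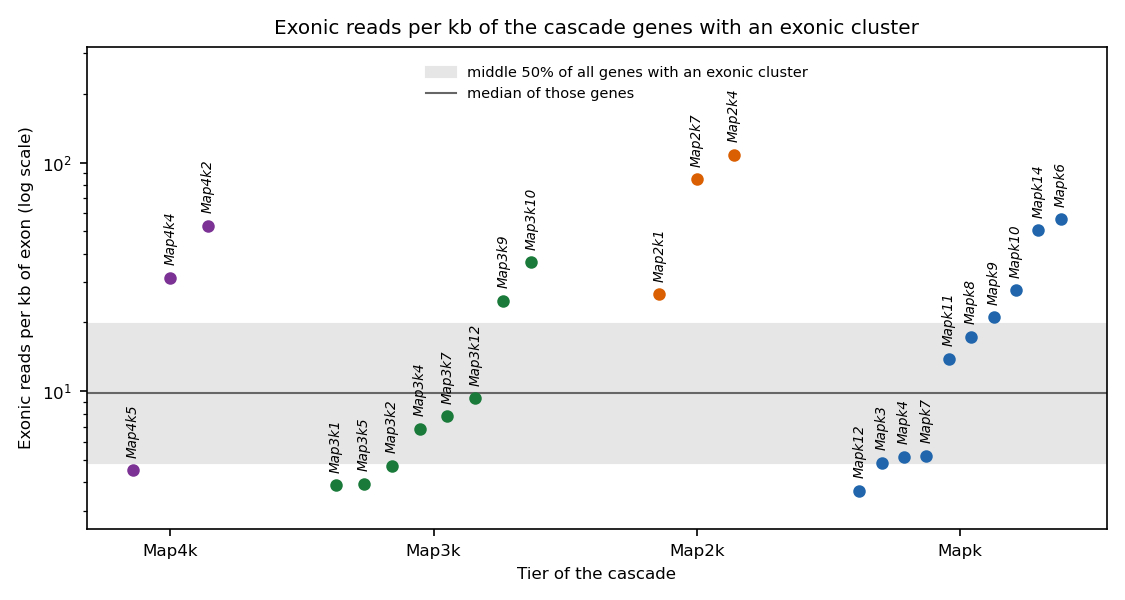
Exonic reads per kb of exon (vertical log axis) for 24 cascade genes with an exonic cluster, by tier; the grey band spans the lower to upper quartile of all protein-coding genes with an exonic cluster and the line is their median. Map2k4 (108 reads per kb) and Map2k7 (84.4) stand highest, and 5 genes lie under the band.

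At the top of the cascade, Map4k2 and Map4k4 (HGK), which act upstream of JNK, held most of the Map4k reads. Map4k2 had 352 exonic reads, 290 in 7 CDS clusters and 62 in 2 3' UTR clusters, and none in clusters of introns alone. Its deepest cluster, 117 reads at chr19:6346408-6346576 on the plus strand (mm10, as all positions here), covers the annotated miRNA gene Mir6989 at chr19:6346480-6346544 on the same strand, so these reads cannot be assigned to the mRNA alone. Map4k4 had 300 exonic reads in 11 clusters, 10 of them in CDS and 1 of 22 reads that reaches the 3' UTR. Map4k5 had 39 reads in 2 3' UTR clusters. Map4k3 had no exonic cluster and 7 clusters in introns with 169 reads. Most exonic reads of Map4k2 and Map4k4 thus lay in clusters classed as CDS. All 7 of these clusters in Map4k2 and all 10 in Map4k4 also name an intron, as 45 of the members' 56 do. In 3 of the 7 of Map4k2, the deepest not among them, at most 50% of the bases fall in exons of the transcript used, so the reads of these clusters cannot be given to coding sequence alone.

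Among the MAP3Ks, Map3k10 and Map3k9, mixed-lineage kinases that feed the JNK branch, had the most exonic reads, while the mixed-lineage kinases Map3k11 (MLK3) and Map3k21 (MLK4) had no cluster. Map3k10 (MLK2) had 152 exonic reads, 58 in 1 3' UTR cluster and 94 in 4 CDS clusters. Map3k9 (MLK1) had 147, of which 112 lay in 5 3' UTR clusters of 12 to 33 reads. Of those 5, 3 clusters with 84 reads lie 1772 to 5794 bases beyond the exons that GENCODE M21 gives Map3k9, 2 of them within the lincRNA Gm49654 on the same strand, so their gene depends on the annotation used. Without them Map3k9 had 63 exonic reads, fewer than Map3k12, Map3k4 and Map3k2. Map3k12 (DLK), a kinase of the axon injury response, had 84 exonic reads, 43 of them in 1 CDS cluster, and Map3k4, which acts on p38 and JNK, had 70, all in CDS. Map3k7 (TAK1), a kinase of cytokine signalling, had 50 reads in 3 3' UTR clusters of 25, 13 and 12 reads, and none of them held a seed match of the 28 miRNA families looked up. Map3k2 had 66 exonic reads, Map3k1 29 and Map3k5 (ASK1) 24. Map3k3 had 4 intron clusters with 106 reads and no exonic cluster.

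The MAP2K tier was uneven. Map2k4 (MKK4) and Map2k7 (MKK7), the kinases that activate JNK, had 505 and 323 exonic reads, 108 and 84.4 per kb, and ranked 68 and 111 among all protein-coding genes per kb. Map2k1 (MEK1), which activates the ERK branch, had 90 reads in 3 CDS clusters of 36, 31 and 23 reads and none in its 3' UTR. Map2k5 (MEK5) and Map2k6 (MKK6) had intron clusters only, with 160 reads in 6 clusters and 10 reads in 1. Map2k2 (MEK2) and Map2k3 (MKK3) had none. No MAP2K of the p38 branch other than Map2k4, which can act on both, had an exonic cluster.

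All 323 exonic reads of Map2k7 lay in its 3' UTR, in 4 clusters of 169, 89, 45 and 20 reads centred 264, 1151, 100 and 1806 bases after the stop codon. The table also names an intron of Map2k7 for all 4 and CDS for the 20-read cluster, since other transcripts are spliced there. The deepest, at chr8:4246034-4246152 on the plus strand, carries 7 bases that contain both the match of miR-128 and that of miR-27. The mature miRNAs (RefSeq, GRCm38.p6) are shown with bases 2 to 8 in capitals, because their seeds are the same run shifted by 1 base.

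miR-128-3p: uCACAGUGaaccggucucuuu
miR-27a-3p: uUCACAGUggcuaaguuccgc
Map2k7, chr8:4246084-4246090 plus strand, 169 reads: cccgacagacACTGTGAacggaagac

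In the Map2k7 transcript (GENCODE M21) the capitals mark the shared bases. Both matches are 8-mers, that is, they pair with miRNA bases 2 to 8 and have an A opposite base 1, and the miR-128 match starts 255 bases after the stop codon, 6 bases from the centre of the cluster. The table counts 6-base matches to miRNA bases 2 to 7, and miRNAs with the same bases there cannot be told apart. A match is a description of the sequence and does not show which miRNA was bound.

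The deepest cluster of all members, 359 reads or 71.1% of the exonic reads of Map2k4, lies at chr11:65690591-65690822 on the minus strand. It covers the end of the coding sequence and the start of the 3' UTR, with 214 of its 232 bases in the last exon and the rest in the intron before it. It holds a match of miR-101, an 8-mer that starts 81 bases upstream of the end of the stop codon, and a match of miR-15/16 at base 5 of the 3' UTR, with an A opposite base 1. Without this cluster Map2k4 had 146 exonic reads. A second 3' UTR cluster of 34 reads holds another miR-101 match and a miR-128 and miR-27 match of the shared kind. The miR-101 seed and its matches are shown because this family came next after miR-124 by its number of matched 3' UTR clusters.

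miR-101a-3p: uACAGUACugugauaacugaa
Map2k4, chr11:65690767-65690772 minus strand, 359 reads: atgaagaacgTACTGTagaggtcgca
Map2k4, chr11:65690295-65690300 minus strand, 34 reads: gtcatggatgTACTGTctgagcatag
Mapk6, chr9:75387610-75387615 minus strand, 40 reads: aagtttttcaTACTGTacacatttct
Mapk6, chr9:75386969-75386974 minus strand, 11 reads: cccctgttttTACTGTatgtttttat
Mapk8, chr14:33381652-33381657 minus strand, 26 reads: caggaataacTACTGTaaatgatgaa

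Capitals mark the 6 bases that the table counts. The Mapk8 match lies 1 base from the centre of its cluster, and the deeper of the Mapk6 matches 14 bases. A further 3' UTR match of miR-101, in Map3k9, lies outside its annotated exons and is not shown.

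The JNK kinases themselves had clusters in all 3 genes. Mapk10 (JNK3), the form enriched in brain, had 308 exonic reads, 241 in 6 3' UTR clusters of 101, 52, 40, 21, 17 and 10 reads and 67 in 3 CDS clusters. All 3 CDS clusters also name an intron, and the deepest, of 31 reads, has 4.67% of its bases in an exon. Its 101-read cluster is centred 3019 bases after the stop codon and has a 6-base miR-128 match at its centre (distance 0) and a miR-132 match 17 bases from it, while the 52-read cluster matches none of the 28 families. Mapk8 (JNK1) had 198 exonic reads, 131 in 5 3' UTR clusters of 43, 34, 26, 17 and 11 reads. Mapk9 (JNK2) had 143, of which 113 lay in 3 CDS clusters and 30 in 2 3' UTR clusters of 18 and 12 reads.

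Set side by side by branch, a grouping made after the values were seen, the JNK branch (Map2k4, Map2k7, Mapk8, Mapk9 and Mapk10) had 1477 exonic reads, 39.0 per kb, and all 5 of its genes had a 3' UTR cluster. The p38 branch (Map2k3, Map2k6, Mapk11, Mapk12, Mapk13 and Mapk14) had 275 exonic reads, 13.1 per kb. The ERK5 branch (Map2k5 and Mapk7) had 23, 3.01 per kb, and the atypical MAP kinases (Mapk4, Mapk6 and Mapk15) 406, 27.7 per kb. A 3' UTR cluster was found for 2 of 6 p38 genes, 1 of 2 ERK5 genes and 2 of 3 atypical genes. Among all protein-coding genes the share was 21.5%. The JNK genes held 36.5% of the members' 3' UTR clusters and 59.0% of their 3' UTR reads, or 49.4% without the 359-read cluster of Map2k4. The JNK genes held 5 of the 7 3' UTR clusters with at least 50 reads. They also have more exonic bases in sum than each of the other 3 groups. The 3' UTR counts and shares were not matched for length, so they cannot be called a trait of the branch. With the deepest exonic cluster of every gene left out, a setting also chosen after the values were seen, the JNK branch had 19.4 reads per kb, the atypical kinases 7.99, p38 6.15 and ERK5 1.31, so the order of these 4 groups stayed. Map2k4, counted here with JNK, can also activate p38.

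**Figure D3:**
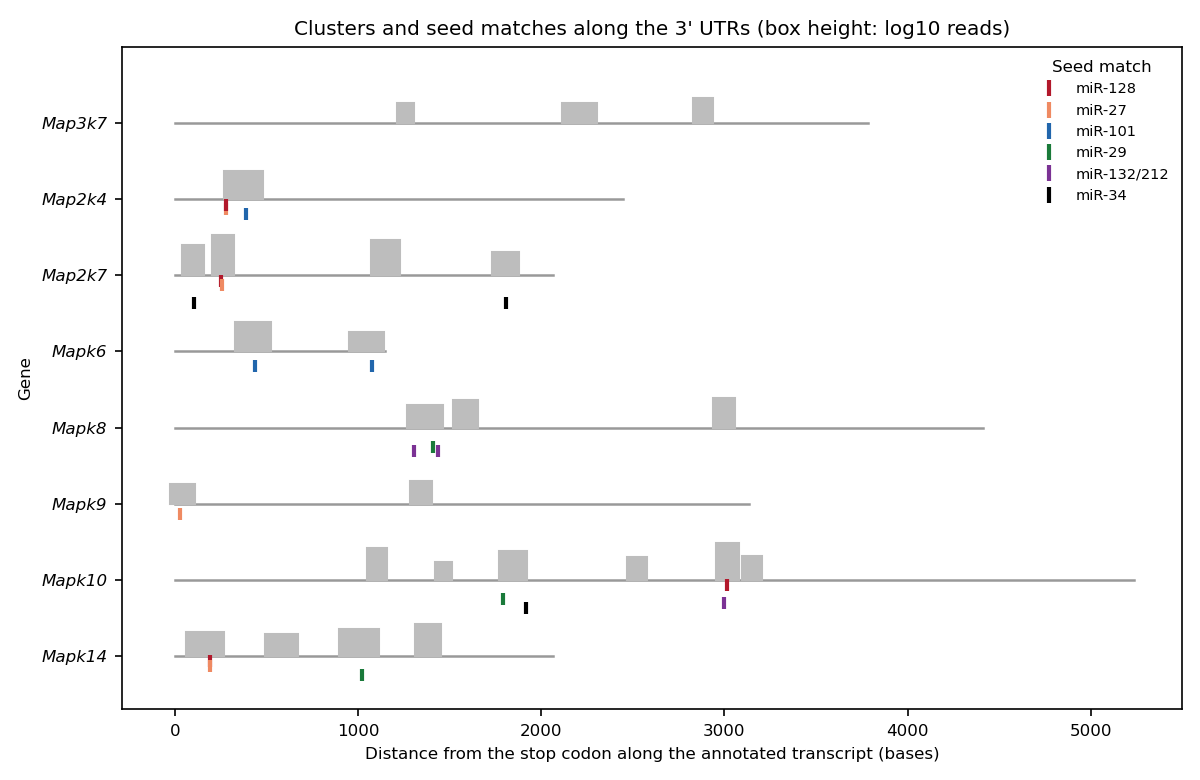
Clusters inside annotated 3' UTR exons of 8 cascade genes: the horizontal axis is the distance from the stop codon in bases, each grey line is a 3' UTR, boxes are clusters with height proportional to log10 reads, and ticks under the line are seed matches of 6 families, set lower for each family in the order of the legend. A single transcript is drawn per gene and only clusters inside 1 exon, so the 359-read cluster of Map2k4 and 2 clusters of Mapk8 on another transcript are not shown; miR-128 and miR-27 ticks coincide in Map2k4, Map2k7 and Mapk14.

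Of the ERK kinases, Mapk3 (ERK1) had 1 cluster of 11 reads, 4.87 per kb, in its 3' UTR, near the lowest count that the table can hold.

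Among the p38 kinases, Mapk14 (p38 alpha) had 221 exonic reads, 102 in 1 CDS cluster and 119 in 4 3' UTR clusters of 53, 29, 21 and 16 reads. The 102-read cluster also names an intron, and 48 of its 239 bases fall in an exon of the transcript used. Its reads thus cannot be given to coding sequence alone. Mapk11 (p38 beta) had 40 exonic reads, Mapk12 (p38 gamma) 14 and Mapk13 (p38 delta) none. Mapk14 was thus the p38 kinase with most of the branch's reads. The 53-read cluster of Mapk14 matches none of the 28 families, and 2 of its other clusters carry the bases shared by miR-128 and miR-27.

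The shared bases appeared 6 times in 4 genes, printed here for the 5 not yet shown because they occur in 3' UTR, 5' UTR and CDS alike.

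Mapk14 3' UTR, chr17:28746532-28746538 plus strand, 21 reads: tgtggaagtcACTGTGAtggtagtga
Map2k4 3' UTR, chr11:65690405-65690411 minus strand, 34 reads: caagttgttgACTGTGAttagatcac
Mapk14 CDS, chr17:28725831-28725837 plus strand, 102 reads: gtgaacgaagACTGTGAgctcaagat
Mapk6 CDS, chr9:75398006-75398012 minus strand, 13 reads: gtagacaatgACTGTGAcaaaagagt
Mapk6 5' UTR, chr9:75398536-75398542 minus strand, 30 reads: atgtatctgcACTGTGAgaggatgtc

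In all, 13 miR-128 matches could be placed in the members' exonic clusters, 5 in 3' UTR, 7 in CDS and 1 in 5' UTR, and 6 of them share their bases with a miR-27 match. A miR-128 match stood in 5 of the members' 3' UTR clusters, of which 3 also had a miR-27 match, and over all genes 530 of 1267 such clusters had both. The 101-read 3' UTR cluster of Mapk10 holds a miR-128 match free of miR-27.

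Mapk10, chr5:102910164-102910169 minus strand, 101 reads: tgagacctggACTGTGtttgtggaag

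The atypical MAP kinase Mapk6 (ERK3), which is not activated by the MAP2Ks, had 378 exonic reads, 56.6 per kb, the highest count of the Mapk tier. Of these, 272 lay in 1 CDS cluster at chr9:75388152-75388341 on the minus strand, in the last stretch of the coding sequence. That cluster holds matches of miR-24 (an 8-mer, 234 bases upstream of the end of the stop codon), miR-138 and miR-22, and its miR-24 match is shown since it is the only 8-mer in the deepest coding cluster.

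miR-24-3p: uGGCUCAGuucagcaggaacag
Mapk6 CDS, chr9:75388281-75388286 minus strand, 272 reads: tgctagaaacTGAGCCagtggaggaa

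Without that cluster Mapk6 had 106 exonic reads. Its relative Mapk4 (ERK4) had 28 exonic reads in 2 clusters and 229 in 10 intron clusters. Mapk7 (ERK5) had 13 reads in its 3' UTR and 10 in CDS.

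By region, the members' clusters resembled all clusters that name a gene, with more in 3' UTRs. The 3' UTR held 52 of 239 clusters, 21.8% (17.0 to 27.4%), against 16.6% of 55842 clusters. CDS held 23.4% against 23.2%, and introns alone 54.4% (48.1 to 60.6%) against 58.6%. The median cluster had 22 reads, against 19. Where they could be placed in an annotated 3' UTR exon, with each 3' UTR cut into 3 equal parts, 18 of 44 clusters were centred in the part nearest the stop codon, 18 in the middle and 8 in the last. This split was not computed for other genes, so it cannot be called particular to the members.

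Seed matches of the 28 brain miRNA families were counted in the 52 3' UTR clusters. The family miR-124 had matches in 8 clusters of 8 genes, 15.4% (8.01 to 27.5%), against 10.3% of 9284 3' UTR clusters. The family miR-101 had matches in 7 clusters of 5 genes, 13.5% (6.68 to 25.3%), against 6.86%. The families miR-128, miR-27 and miR-34 had 5 clusters each, 9.62% (4.18 to 20.6%), against 13.6%, 13.3% and 5.41%. No match was found for miR-7, miR-153 or miR-99/100, and for miR-7 the upper limit of 6.88% lies below the 7.66% of all 3' UTR clusters. In the other 27 families the interval held the share of all 3' UTR clusters, so no difference was detectable with 52 clusters. Clusters of 1 gene are not independent, and the members' 3' UTR clusters had a median width of 134 bases against 144. The intervals were not adjusted for looking at 28 families. In 14 of 52 clusters, 26.9% (16.8 to 40.3%), no family matched, against 19.0%.

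**Figure D4:**
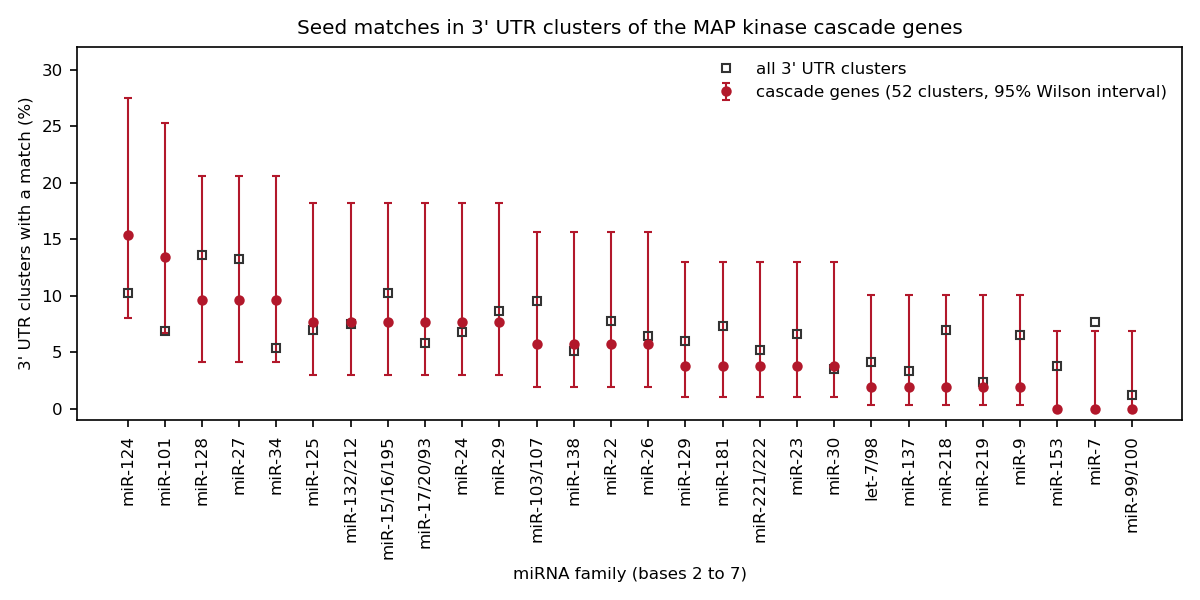
Share of 3' UTR clusters with at least 1 seed match (vertical axis, percent) for 28 miRNA families: filled points are the 52 clusters of cascade genes with 95% Wilson intervals, open squares all 9284 3' UTR clusters. The squares lie inside the intervals for 27 families, and for miR-7 the interval ends at 6.88%, under the square at 7.66%.

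The matches ranged from 6-mers to 8-mers and lay across the width of the clusters. In the 46 3' UTR clusters inside 1 annotated exon, 67 matches of the 26 families with a mature sequence were placed. Of these, 31 were 6-mers, 17 had an added A opposite base 1, 11 paired with bases 2 to 8 and 8 were 8-mers. Within 25 bases of the cluster centre lay 25 matches, 37.3%, and the central 51 bases make up 35.8% of the clusters' length on average. The 8-mers fell in Map4k2 (miR-137), Map2k7 and Mapk14 (miR-128 in both, miR-27 in Map2k7), Mapk6 (let-7), Mapk7 and Mapk14 (miR-24) and Mapk8 (miR-30).

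Introns gave 130 of the 239 clusters and 3517 of the 7282 reads. The 25 members with such clusters had a median of 6.08 per 100 kb of intron, against 5.28 for 6131 protein-coding genes with at least 1. The median distance of the members' intron clusters to the nearest annotated exon was 2834.5 bases, and 91 were over 1000 bases away. These distances were not computed for other genes. Mapk10 had the most intron clusters of the members, 35 with 1056 reads, and ranked 125 among all protein-coding genes by their number. Of those, 30 lie over 1000 bases from an exon, the median had 21 reads, and the deepest, at chr5:102967158-102967315 on the minus strand, had 228 reads and lies 530 bases from an exon. Mapk10 has 292257 bases of intron, and per 100 kb it had 12.0 clusters, below Map3k10 (28.4, 4 clusters), Mapk11 (23.5, 1 cluster) and Map2k7 (18.8, 1 cluster), which have less intron, and close to Map2k4 (11.5, 11 clusters) and Map3k7 (11.3, 6 clusters). Map4k4 had 8 intron clusters and Mapk4 10.

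The deepest intron cluster of any member, 277 of the 381 intron reads of Mapk8, lies at chr14:33428739-33428922 on the minus strand, 17715 bases from the nearest Mapk8 exon. It falls inside the processed pseudogene Gm49037 on the same strand, so these reads cannot be assigned to the Mapk8 transcript. Without it Mapk8 had 104 intron reads.

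**Figure D5:**
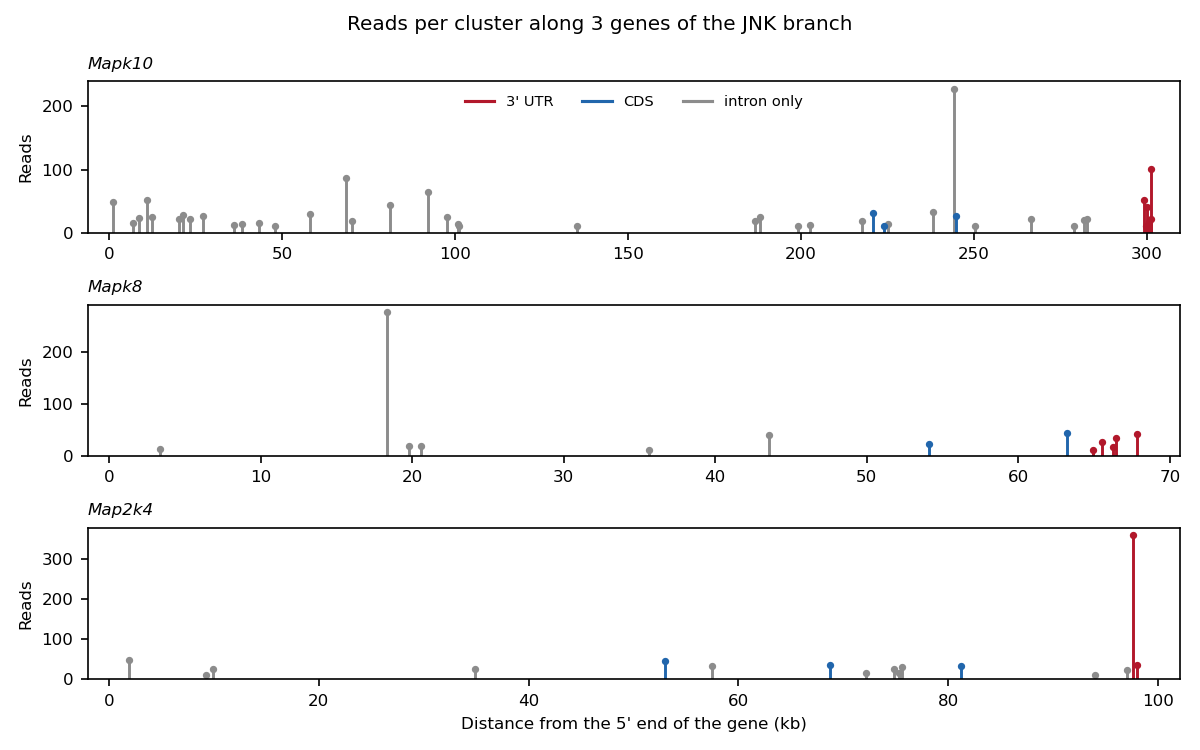
Reads per cluster (vertical axes) against the distance in kb from the 5' end of the gene (horizontal axes) for Mapk10, Mapk8 and Map2k4; colours give the region. In Mapk10 the intron clusters spread over the gene with 1 of 228 reads, in Mapk8 the 277-read cluster of the pseudogene stands alone, and in Map2k4 the 359-read cluster stands at the 3' end.

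The table also lists circRNA identifiers, which mark clusters that overlap a known circular RNA. They were given for 60 of the 239 clusters of cascade genes, 25.1% (20.0 to 31.0%), against 15.9% of all clusters that name a gene. In CDS they were given for 26 of 56 clusters, 46.4% (34.0 to 59.3%), against 26.7%, and in introns for 32 of 130, 24.6% (18.0 to 32.7%), against 15.0%. In 3' UTRs 2 of 52 had one, 3.85% (1.06 to 13.0%), against 4.47%. Clusters of 1 gene are not independent, which these intervals do not allow for. The 26 CDS clusters belong to 12 genes, 7 to Map4k4 and 3 each to Map4k2, Map2k4 and Mapk10, and whether the reads came from a circular or a linear transcript cannot be told apart.

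The proteins that work with the cascade were looked up as a list of 62 genes, of which 50 had an exonic cluster, 80.6% (69.1 to 88.6%), against the 35.8% of all protein-coding genes. This list too holds long genes: 28 of the 62 fall in the bin of the longest, where 27 had an exonic cluster against 64.0% of all genes. In the bin from 3501 bases 9 of 14 had one against 43.9%, and in the bin from 1971 bases 12 of 17 against 25.9%. Among the shortest genes it was 2 of 3 against 9.33%. The list had a median of 10.0 exonic reads per kb, genes without a cluster counting as 0. It was 4.53 over the 43 cascade genes and 0 over all protein-coding genes. The list was picked from textbook roles and the cascade genes are all annotated symbols of 4 stems, so the 2 sets are unlike. Scaffolds and adaptors had exonic clusters in 16 of 20 genes, led by Pea15a, which holds ERK in the cytoplasm (403 reads, all in 3' UTR), and the arrestin Arrb1 (371, all in 3' UTR). Kinases at the MAP3K level under other names had them in 6 of 7, led by Taok1 (172). The MAP4K-like kinases Tnik (388) and Mink1 (33.7 reads per kb) and the atypical MAP kinase Nlk (161) all had them. Kinases activated by MAP kinases had them in 8 of 11, led by Rps6ka3 (RSK2, 240, all in 3' UTR) and Mknk2 (211). The phosphatases that switch MAP kinases off had them in 7 of 10, led by Dusp8 (257), which acts on JNK and p38, and Dusp7 (136), which acts on ERK. Transcription factors phosphorylated by MAP kinases had them in 10 of 11, led by Mef2c (238) and Mef2a (221). By reads per kb, Pea15a (104) stood near Map2k4 (108), and the medians of the roles ran from 4.61 for the activated kinases to 29.6 for Nlk alone.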

How the data were processed

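FLAG-Ago HITS-CLIP was made from mouse forebrain, with 5 Flag-Ago2 and 3 control libraries. Per the labels' protocols, tissue was irradiated 3 times with 400 mJ/cm2, Argonaute was pulled down by the M2 antibody to FLAG, and 15 PCR cycles were used. Per the submitters' processing notes, the authors aligned reads with BWA to mm10. Not given in the sources used here are the BWA version, cluster calling, which libraries were pooled, any use of controls and any duplicate removal. Each deposited count gives the reads of a cluster without normalization, and the 1281 deposited miRNA columns hold numbers of 6-base seed matches, per the file headers and values. The 0 columns that belong to 1 library leave no depth per library and no test of Flag-Ago2 against control, for which edgeR had been planned.

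For each gene a cluster took the first region that applied: 3' UTR, then CDS, then 5' UTR, then intron. Exonic reads are sums over a gene's 3' UTR, CDS and 5' UTR clusters, divided by the union of its GENCODE M21 exons for reads per kb. Of all exonic clusters, 140 name more than 1 gene and 0 of these name a member. Seed matches were recounted on GENCODE transcripts and equalled the deposited column in 1612 of 1612 pairs of cluster and family, for the 62 of 109 exonic clusters inside 1 annotated exon; the rest were not recounted. Mature sequences are from RefSeq (GRCm38.p6) for 26 of 28 families. The sums were tested on simulated clusters. Named genes are the 4 per tier with most exonic reads, all ERK, JNK, p38 and Map2k genes, members with at least 3 3' UTR clusters, the 5 with most intron clusters, members with no exonic cluster, and 2 genes per pathway role. Values of 1 member, the branch sums that need it and 1 pathway gene that this rule would name are not reported here. The pathway list had 63 symbols; Zak, an older symbol of the cascade gene Map3k20, was left out of its counts. Members, lists and this rule were chosen with earlier results of these data known. Other settings tried were a minimum of 20 reads, other region and length rules, and sums without the deepest cluster. Python 3.11.15 with numpy 2.4.6, scipy 1.17.1 and matplotlib 3.10.9 was used.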

Additional observations from a re-analysis of the deposited data

Results flagged for a closer look

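Some clusters at the loci of cascade genes lie outside the columns that define the members, and no control value can be set beside them. In the antisense column the table names Map2k1 for a cluster of 26 reads, which names Uchl4 on its own strand, Mapk10 for clusters of 29 and 11 reads, Map3k5 for 13, Map3k12 for 12 (Pcbp2 on its own strand), Map3k15 for 14 (Pdha1 on its own strand) and Map2k6 for 10. For Map3k15 this is the only cluster that carries its name.

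Other clusters name no gene yet lie in or just past an annotated cascade gene on its strand. Map3k13, a kinase of the same group as Map3k12 and not a member, has 3 such clusters in its introns, with 34, 23 and 11 reads, and Map2k6 has 1 with 22 reads. Past the annotated 3' end lie a cluster of 11 reads for Map3k3 (67 bases) and 1 of 21 reads for Map3k1 (2198 bases).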

How the results depend on the processing

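No paired analysis was possible because the deposited table separates neither libraries nor genotypes, so the comparison of Flag-Ago2 with control libraries and its alternatives were not run. The numbers of members with an exonic or 3' UTR cluster stayed within 1.5 times under the settings tried for them, and so did the number of intron clusters with every overlap counted (182 against 130). With clusters of at least 20 reads only, an alternative chosen after seeing the data, 70 intron clusters were left, 51.9% of the members' clusters against 54.5% over all clusters that name a gene. Under the same minimum the exonic reads of 10 of 25 members changed by over 1.5 times, and the shares of 3 of 28 families (miR-15/16, miR-103 and miR-218) left their Wilson interval. Without the deepest exonic cluster the exonic reads of 19 of 25 members changed by over 1.5 times, and with the longest transcript as length the reads per kb of 8 of 25 did. Clusters that name no other gene in exons, 3' UTR clusters that name no CDS and equal weight per gene moved none. Depth limits all values: a cluster needs 10 reads to be listed, and 52 3' UTR clusters leave wide intervals.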
